A study of Homo sapiens with 6 samples.

Results

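The genes described here are the nuclear genes that encode subunits of respiratory complexes II, III and IV and of ATP synthase (complex V), together with cytochrome c. They were taken by symbol from a count table of 17297 genes, and all 40 symbols were found, with the ATP synthase genes under their older ATP5 names. By complex, they comprised 4 genes of complex II, 9 of complex III, 11 of complex IV, 15 of complex V, and CYCS, the gene of cytochrome c. Expression had been measured by RNA-seq in LNCaP, a long-established cell line from a human prostate cancer with luminal features. The cells stably carried either the empty pBabe vector (pBabe-vector, genotype WT) or the same puromycin-selected retroviral vector with wild-type GNA13 cDNA (pBabe-Gα13, genotype GNA13 overexpression). GNA13 encodes Gα13, the α subunit of a heterotrimeric G protein. Each line was represented by 3 biological replicates grown for 48 h in RPMI medium with serum, and 1 stable line stood for each condition. P-values therefore measure the spread between cultures of these lines and not between independently made lines.

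Complex II (succinate dehydrogenase) passes electrons from succinate to ubiquinone. Complex III passes them on to cytochrome c, and complex IV (cytochrome c oxidase) transfers them to oxygen. ATP synthase uses the proton gradient that the chain builds to make ATP, through a catalytic F1 head joined by stalks to a membrane part that holds a ring of subunit c. Complex II is encoded by nuclear genes alone, whereas complexes III, IV and V each also need subunits encoded by mitochondrial DNA, so both genomes must be expressed to build them. Prostate cells are known for an unusual energy metabolism, since normal luminal epithelium secretes citrate and malignant cells oxidize it.

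The libraries held 33002160 to 40628970 counts, and levels are given as CPM, a gene's counts relative to the library total after trimmed mean of M-values (TMM) scaling. GNA13, the gene that was overexpressed, stood at 820.1, 886 and 747 CPM in pBabe-Gα13 and at 76.7, 69.4 and 65.4 CPM in pBabe-vector (log2 fold change 3.54 ± 0.12 SE, adjusted p = 9.12e-05, edgeR's quasi-likelihood test). Of the markers examined, the luminal genes KLK2, KLK3, TMPRSS2 and FOLH1 were all detected in every library, at 83.3 CPM or more. KLK2 stood at 173, 371 and 169.8 CPM in pBabe-Gα13 and at 111, 171 and 83.3 CPM in pBabe-vector. It was higher in pBabe-Gα13 in each pair (edgeR, adjusted p 0.509 with the line alone and 3.19e-11 with pairs as a block). With the line alone, the log2 fold change was 0.97 for KLK2, 0.19 for KLK3, 0.13 for TMPRSS2 and −0.04 for FOLH1. The basal marker KRT5 stood at 3.08, 0 and 3.72 CPM against 0.572, 0 and 0.592 CPM (edgeR; adjusted p 0.709 with the line alone and 7.2e-07 with the block). TP63, the other basal marker, had 4, 0 and 5 counts against 0 in every pBabe-vector library. The fibroblast gene COL1A1 lay between 11.5 and 23.1 CPM. The part of these markers in the results below was not tested. PTPRC (leukocyte) and PECAM1 (endothelial) were looked up as well and were not found in the count table. One library of each line carried the tag std in its column heading. The heading of the tagged pBabe-Gα13 library repeats the number 2, so it is tied to its line but not to a numbered replicate, and both tagged libraries are called std below. Libraries with the same number or tag were alike across the lines and are treated as 3 pairs (std, replicate 2 and replicate 3). The std libraries stood apart in the reads of mitochondrial DNA, as described at the end.

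The first question was whether overexpression of Gα13 went with a change in the genes of the respiratory chain and ATP synthase. The 40 genes were expressed in every library, from 26.5 CPM (ATP5O) to 1555 CPM (ATP5B), and the lowest raw count was 948, so that none was limited by depth. With the line as the only term, 0 of the 40 passed an adjusted p of 0.05 in edgeR's quasi-likelihood test, where 24 of all 17297 genes did (0.139%). At an unadjusted p under 0.05 there were 4 (ATP5E, COX6A1, ATP5G2 and ATP5B), against 8.46% of all genes. DESeq2 called 1 (ATP5E), against 1.68% of the genes to which it gave an adjusted p, and limma-trend 0, against 0.0289%. The log2 fold change of pBabe-Gα13 over pBabe-vector was below 0 for 33 genes and above 0 for 7. Its median was −0.08 (−5.17% on the linear scale), against −0.0013 over all genes tested and −0.01 over the genes with a mean of at least 1 CPM, of which 53.6% lay below 0. Fold changes ranged from −0.41 for ATP5E to 0.33 for ATP5G2, with standard errors between 0.09 and 0.20. Whole cultures were sequenced, so fewer cells of a type and less RNA per cell cannot be told apart.

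Taken as a sum over the 40 genes, the 3 pBabe-Gα13 libraries held 8622 ± 483 CPM (SD, n = 3) and the 3 pBabe-vector libraries 8772 ± 110.3 CPM. Without ATP5B, by far the gene with the most reads, the sums were 7146 ± 388 and 7542 ± 154 CPM. The heat map of log2 CPM shows 1 library that was low for most of the genes: replicate 2 of pBabe-Gα13 held the lowest value of the 6 libraries for 28 of the 40 genes, where 22.9% of the table's genes with a mean of at least 1 CPM were lowest. The highest value fell to replicate 3 of pBabe-vector for 13 genes (22.5% of the table's genes), to replicate 2 of pBabe-vector for 11 (16.4%) and to replicate 3 of pBabe-Gα13 for 10 (15.7%). The size of the downward shift changed most when replicate 2 or replicate 3 of pBabe-Gα13 was left out. Without replicate 2 of pBabe-Gα13 the median log2 fold change was −0.03 and 25 genes lay below 0. Without replicate 3 of pBabe-Gα13 the median was −0.12 with 33 below 0. Dropping the std library of pBabe-vector gave −0.105 with 34 below 0. Each of the remaining single-library omissions gave a median from −0.08 to −0.07, with 30 to 32 below 0.

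**Figure D1:**
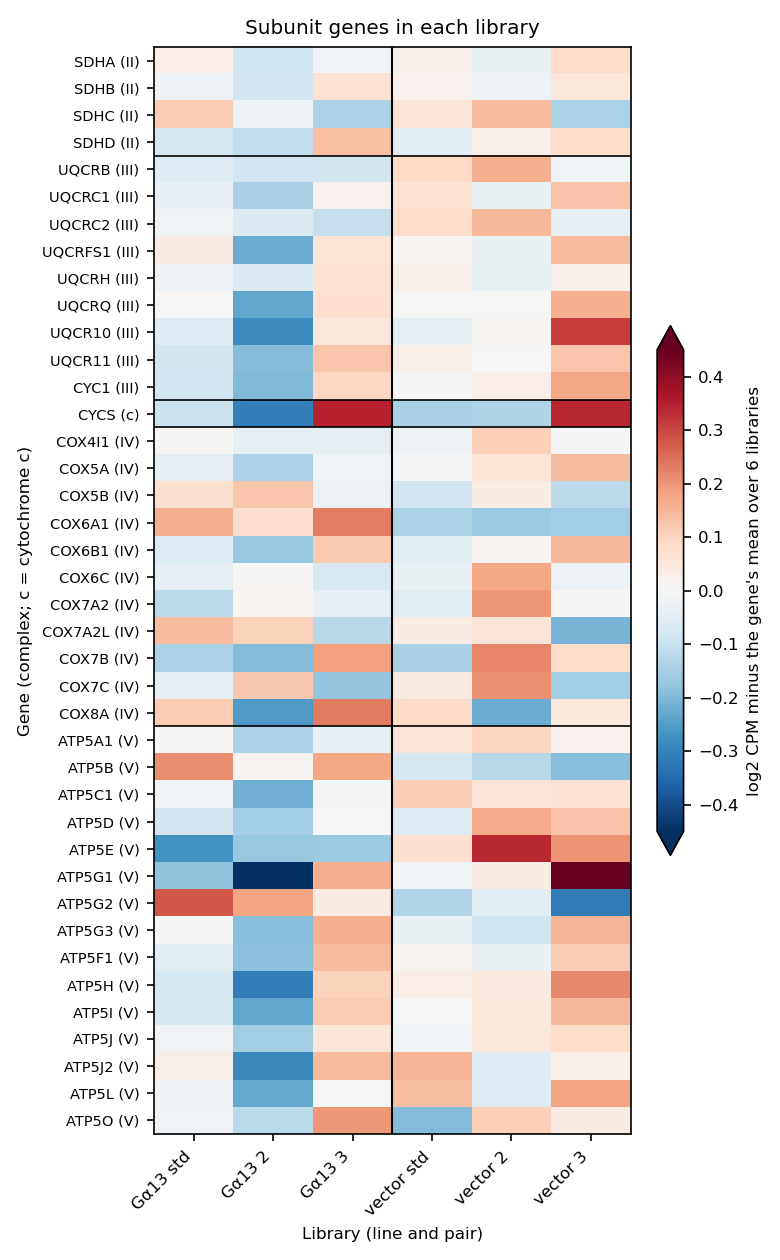
Heat map of the 40 genes (rows, grouped by complex) in the 6 libraries (columns, 3 of each line); color gives log2 CPM minus the gene's mean over the 6 libraries. Replicate 2 of pBabe-Gα13 is the column with the most blue (lowest of 6 for 28 genes), COX6A1, ATP5B and ATP5G2 are higher in all 3 pBabe-Gα13 libraries, and CYCS is high in both replicate 3 libraries.

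Within pairs, the difference between the lines could be read 3 times. The median log2 difference of the 40 genes was −0.03 in the std pair with 25 genes below 0, −0.18 in the replicate 2 pair with 35 below 0, and −0.03 in the replicate 3 pair with 23 below 0. Over the table's genes with a mean of at least 1 CPM the medians were −0.02, −0.02 and −0.0057. The replicate 2 pair was thus the one in which the genes lay lowest as a group. There were 19 genes lower in pBabe-Gα13 in 3 of 3 pairs (25.3% of all genes) and 5 higher in 3 of 3 pairs (22.6% of all genes). The groups did not overlap for 5 genes that were lower in pBabe-Gα13 (UQCRB, COX5A, ATP5A1, ATP5C1 and ATP5E; 6.79% of all genes) and for 3 that were higher (COX6A1, ATP5B and ATP5G2; 7.3% of all genes). For each of these 8 the exact two-sided permutation p was 0.1, the smallest that 3 against 3 libraries allow.

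When the pair was added as a block, 11 of the 40 genes passed in edgeR's quasi-likelihood test. Lower in pBabe-Gα13 were 8 of them (UQCRB, UQCR10, ATP5C1, ATP5D, ATP5E, ATP5G1, ATP5H and ATP5L), against 10.4% of all genes called lower, and 3 were higher (COX6A1, ATP5B and ATP5G2), against 9.32% called higher. The 3 that were higher are the 3 members on chromosome 12, and 6 of the 8 that were lower belong to ATP synthase, which has 15 of the 40 genes. Leaving out the std pair gave 12 calls among the 40 (18.9% of all genes), leaving out the replicate 2 pair 5 (14.7%) and leaving out the replicate 3 pair 6 (13%). COX6A1, ATP5B, ATP5E, ATP5G1 and ATP5G2 passed in the blocked fit and in each of these 3 fits.

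**Figure D2:**
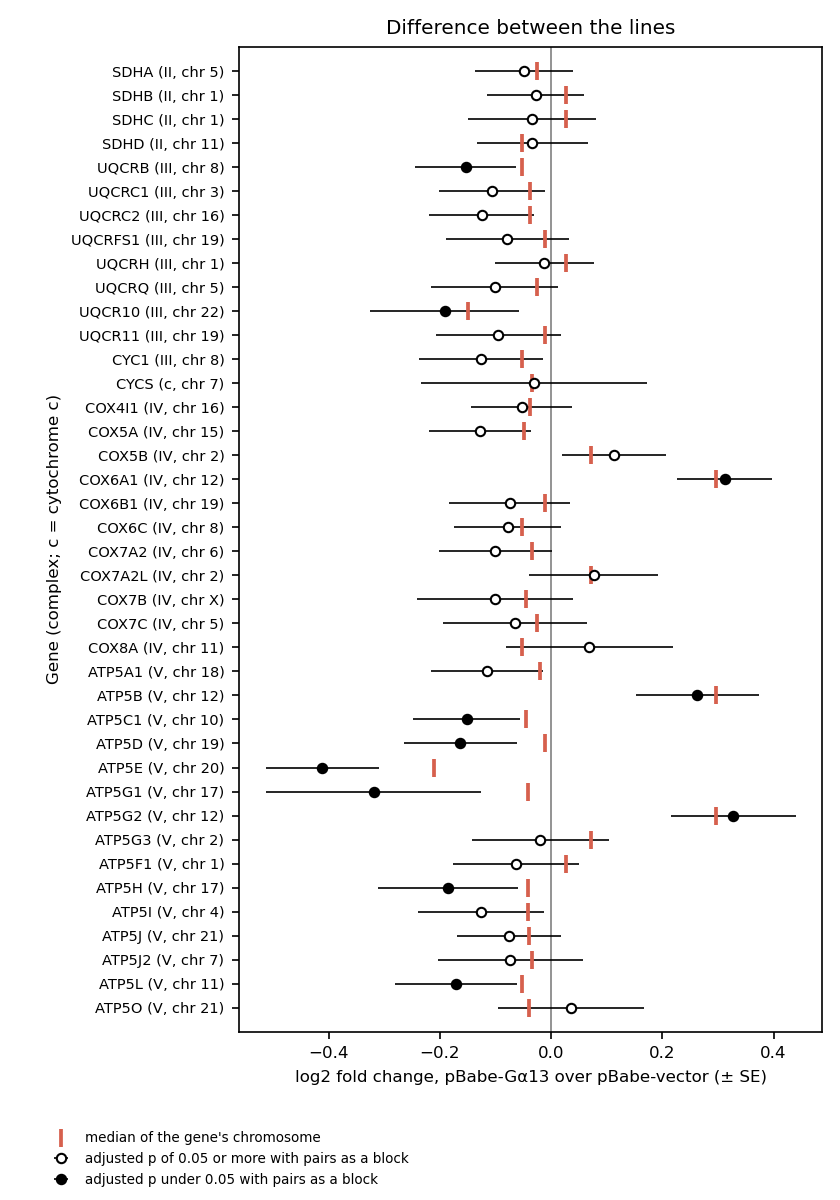
Log2 fold change of pBabe-Gα13 over pBabe-vector for each gene (circles, bars give ± 1 SE of the fit without pairs), with the median of all genes of its chromosome (orange ticks); filled circles had an adjusted p under 0.05 with pairs as a block. The 11 filled circles run from −0.41 (ATP5E) to 0.33 (ATP5G2), and the 3 genes of chromosome 12 sit beside their chromosome's tick at 0.30.

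Because the genes lie on 20 chromosomes, each was also set against its own chromosome. The median log2 fold change of all genes of a chromosome with a mean of at least 1 CPM was 0.30 for chromosome 12, where 93.7% of genes lay above 0, −0.21 for chromosome 20, −0.15 for chromosome 22 and 0.07 for chromosome 2. It lay between −0.05 and 0.03 for the other 16. COX6A1, ATP5B and ATP5G2 were the only members on chromosome 12, ATP5E the only one on 20 and UQCR10 the only one on 22. With each gene centered on its chromosome and pairs as a block, 4 of the 40 genes were lower in pBabe-Gα13. The share among the 14501 genes with a known chromosome was 8.31%. There were 0 higher, against 7.17%. The 4 were ATP5D, ATP5E, ATP5G1 and ATP5H, all of ATP synthase. ATP5D and ATP5H passed narrowly (edgeR, adjusted p = 0.0342 and 0.0429). In the blocked fit without centering, neither passed when the replicate 2 pair was left out (edgeR, adjusted p = 0.427 and 0.26). At an adjusted p of 0.852 for COX6A1, 0.711 for ATP5B and 0.677 for ATP5G2 (edgeR), the genes of chromosome 12 did not pass. Centered without the block, 0 members passed, against 0.103%. Away from chromosome 12, 33 of 37 members lay below 0 with a median of −0.08, and centered on the chromosomes the median of the 40 was −0.07 with 34 below 0. Genes in general also lay mostly below 0 there. Among the chromosomes with members, most genes lay above 0 only on chromosomes 1 (58.9%), 2 (70.7%) and 12, and on the others 19.5% to 46.1% did. Whether a member's difference belongs to the gene or to its stretch of chromosome was not tested further.

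Before the values by complex, the sequences upstream of 4 genes are shown, those that passed with the block and again without each pair and had a promoter entry. After centering on chromosomes, ATP5E and ATP5G1 still passed and COX6A1 and ATP5G2 did not. All are 250 bases before the RefSeq gene start in GRCh38.p14, written 5′ to 3′ on the gene's strand, and capitals mark the motifs searched on both strands: the core of the nuclear respiratory factor 1 (NRF1) site, GCATGCGC; the ETS (GABPA) site, CCGGAAG; and the YY1 site, AAGATGGC. These factors are textbook regulators of respiratory chain genes. COX6A1 lies on the plus strand (promoter chr12:120437863-120438112), ATP5G2 on the minus strand (chr12:53676084-53676333, the first of 3 entries), ATP5E on the minus strand (chr20:59032336-59032585) and ATP5G1 on the plus strand (chr17:48892537-48892786).
COX6A1: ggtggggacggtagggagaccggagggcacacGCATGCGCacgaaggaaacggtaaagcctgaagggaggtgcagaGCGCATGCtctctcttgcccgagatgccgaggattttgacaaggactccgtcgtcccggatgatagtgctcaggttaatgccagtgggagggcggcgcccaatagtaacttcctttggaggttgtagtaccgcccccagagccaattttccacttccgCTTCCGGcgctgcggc
ATP5G2: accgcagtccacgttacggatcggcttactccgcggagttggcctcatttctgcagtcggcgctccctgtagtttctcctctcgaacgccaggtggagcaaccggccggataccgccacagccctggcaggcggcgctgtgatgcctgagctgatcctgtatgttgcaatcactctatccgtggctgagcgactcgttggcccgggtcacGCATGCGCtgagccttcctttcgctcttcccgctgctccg
ATP5E: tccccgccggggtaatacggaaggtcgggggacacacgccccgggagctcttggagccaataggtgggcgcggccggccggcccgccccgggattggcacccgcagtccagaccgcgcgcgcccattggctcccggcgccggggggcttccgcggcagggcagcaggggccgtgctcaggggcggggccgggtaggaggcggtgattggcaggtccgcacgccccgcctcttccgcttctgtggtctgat
ATP5G1: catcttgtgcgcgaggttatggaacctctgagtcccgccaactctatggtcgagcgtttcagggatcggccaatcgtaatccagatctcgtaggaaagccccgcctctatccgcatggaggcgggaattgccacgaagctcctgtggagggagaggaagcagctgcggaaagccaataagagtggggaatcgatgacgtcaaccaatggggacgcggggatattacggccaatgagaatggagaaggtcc
COX6A1 held the NRF1 core at 218 and 174 bases before the start and the ETS site at 16, and ATP5G2 held the NRF1 core at 40. None of the motifs occurred in the windows of ATP5E and ATP5G1, nor in the third entry of ATP5G2. The NRF1 core occurred in genes of both directions. Besides COX6A1 and ATP5G2 it was in COX5B, which lay above 0. It was also in ATP5C1, which was lower with the block, and in SDHB, SDHD, ATP5I, ATP5J and CYCS, which lay below 0. ATP5H, lower with the block, held the ETS site at 101. Whether the motifs go with direction was not tested. Shares are of genes, and a gene counted if any of its promoter entries held the motif. Of 27305 genes with an entry, 9864 were in the table with a mean of at least 1 CPM. Over the 32 members with an entry, 9 held the NRF1 core (28.1%, against 3.68% of the 27305 and 6.80% of the 9864). The ETS site was in 15 (46.9%, against 12.2% and 23.2%) and the YY1 site in 5 (15.6%, against 3.52% and 6.78%). A match is a run of letters and not a measured site.

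Complex II differed little between the lines. All 4 genes lay below 0, between −0.05 and −0.03, the median was −0.03, and 0 passed with or without the block. SDHA, the flavoprotein that holds the succinate site, stood at 157, 144 and 152 CPM in pBabe-Gα13 (std, replicate 2 and replicate 3, the order used throughout) and at 156, 150.4 and 163 CPM in pBabe-vector. The groups overlapped, and the log2 fold change was −0.05 ± 0.09. SDHD, a membrane anchor that helps to hold heme and ubiquinone, stood at 66.4, 64.8 and 76.7 CPM against 67.6, 71.1 and 74.1 CPM, with a log2 fold change of −0.03 ± 0.10. The iron-sulfur subunit SDHB and the second anchor SDHC had values of −0.03 each.

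In complex III all 9 genes lay below 0, with a median of −0.11. With pairs as a block 2 passed, both lower, against 10.4% of all genes called lower. UQCRB, the ubiquinone-binding protein, stood at 236, 231 and 232 CPM in pBabe-Gα13 and at 261, 274 and 242 CPM in pBabe-vector. Every pBabe-Gα13 library was below every pBabe-vector library. This came to −0.15 ± 0.09 on the log2 scale, with an adjusted p of 0.768 in edgeR's test and of 0.0382 with the block. UQCR10, a small subunit beside cytochrome c1, stood at 96.2, 82.3 and 104 CPM against 97.4, 101 and 124 CPM. Its groups overlapped, since the std pair differed by only −0.02 and the replicate 2 and 3 pairs by −0.29 and −0.26 on the log2 scale. Over all 6 libraries the log2 fold change was −0.19 ± 0.13 (edgeR; adjusted p 0.835 without and 0.0179 with the block), beside a median of −0.15 for the genes of chromosome 22. The catalytic subunits CYC1 (cytochrome c1) and UQCRFS1 (the Rieske iron-sulfur protein) had log2 fold changes of −0.13 and −0.08, and the core proteins UQCRC1 and UQCRC2 of −0.11 and −0.12. None of these 4 passed either fit.

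CYCS, the mobile carrier between complexes III and IV, varied with the pair rather than the line. It stood at 337, 291 and 458 CPM in pBabe-Gα13 and at 326, 328 and 456 CPM in pBabe-vector. Both replicate 3 libraries were the high ones, and the lines overlapped fully (log2 fold change −0.03 ± 0.20). The F test of the pair terms in the blocked fit gave an adjusted p of 5.92e-08 (edgeR). Of the 40 genes, 21 passed that test, against 47.4% of all genes. ATP5G1 (adjusted p = 1.05e-06) and COX8A (4.03e-05), a small subunit of complex IV, had the next smallest values by edgeR. COX8A was lowest in both replicate 2 libraries, at 133 and 136 CPM, and lay between 164 and 187 CPM in the others.

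Complex IV was mixed, with 7 of 11 genes below 0, 4 above and a median of −0.07. COX6A1, the ubiquitous isoform of subunit 6A, stood at 97.3, 91.9 and 102 CPM in pBabe-Gα13 and at 79, 77.5 and 78.2 CPM in pBabe-vector. Every pBabe-Gα13 library was above every pBabe-vector library. The rise of 0.31 ± 0.09 on the log2 scale had an adjusted p of 0.339, and of 7.91e-05 in the blocked fit (edgeR). Against the genes of chromosome 12 it was 0.02. COX5A, which binds next to the matrix side of the core, stood at 194, 181 and 198 CPM against 198, 208 and 219 CPM. The groups did not overlap, though the lowest pBabe-vector and the highest pBabe-Gα13 library were almost level, and the log2 fold change of −0.13 ± 0.09 passed neither fit (edgeR, adjusted p = 0.844 and 0.091). Both COX5B, the zinc-binding subunit, and COX7A2L, a factor of respiratory supercomplexes, lie on chromosome 2 and had log2 fold changes of 0.11 and 0.08 without passing. Of the largest nuclear subunit, COX4I1, the value was −0.05.

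ATP synthase, with 15 of the 40 genes, held 8 of the 11 that passed with the block. Lower were 6 of them, against 10.4% of all genes, and 2 were higher, both on chromosome 12, against 9.32%. The median log2 fold change of the complex was −0.12. In the F1 head 4 of 5 genes lay below 0, with a median of −0.15. ATP5E, the ε subunit of the central stalk, stood at 167, 179.6 and 179.9 CPM in pBabe-Gα13 and at 213, 256 and 233 CPM in pBabe-vector. The groups were well apart, and all 3 pairs showed a fall, of −0.35, −0.51 and −0.37. The mean was 176 ± 7.11 CPM against 234 ± 21.4 CPM (SD, n = 3), a log2 fold change of −0.41 ± 0.10. Its adjusted p was 0.299 in edgeR's test, 0.0443 in DESeq2 and 1.61e-06 with the block, and relative to chromosome 20 the log2 fold change was −0.21 (adjusted p = 0.00402). TUBB1 on the opposite strand covers 32.7% of the exon bases of ATP5E in Gencode 44, and whether the counting used strand was not given in the sources used here.

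ATP5B, the catalytic β subunit, went the other way, at 1555, 1356 and 1519 CPM in pBabe-Gα13 and 1277, 1234 and 1180.2 CPM in pBabe-vector. The groups did not overlap. On the log2 scale it was higher by 0.26 ± 0.11 (edgeR; adjusted p 0.583 without and 0.000409 with the block), but by −0.03 relative to chromosome 12. Its partner ATP5A1, the α subunit that alternates with β around the head, stood at 892, 805 and 867 CPM against 925, 952 and 902 CPM. These groups did not overlap either, in the opposite direction, and the log2 fold change of −0.12 ± 0.10 did not pass in either fit. ATP5C1, the γ subunit that turns inside the head, stood at 188, 163 and 189 CPM against 205, 197 and 198 CPM, with every pBabe-Gα13 library below every pBabe-vector library. Its log2 fold change of −0.15 ± 0.10 passed in the blocked fit (edgeR; adjusted p 0.796 without and 0.0386 with the block). ATP5D, the δ subunit of the central stalk, stood at 223, 213 and 237 CPM against 228, 266 and 259 CPM. The groups overlapped, and most of the difference lay in the replicate 2 pair, at −0.32. Its log2 fold change was −0.16 ± 0.10 (edgeR; adjusted p 0.784 without and 0.0388 with the block) and stayed at −0.16 against chromosome 19 (adjusted p = 0.0342).

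Subunit c, of which several copies form the rotor ring in the membrane, is encoded by 3 genes whose products differ in the targeting sequence and share the same mature protein. The 3 genes differed in direction between the lines. ATP5G1 stood at 92.8, 76.0 and 118 CPM in pBabe-Gα13 and at 104, 108 and 146 CPM in pBabe-vector. It was lower in pBabe-Gα13 in every pair, but the groups overlapped because both replicate 3 libraries were high. The log2 fold change was −0.32 ± 0.19 (edgeR; adjusted p 0.771 without and 0.00016 with the block), of which −0.29 remained against chromosome 17 (adjusted p = 0.000765). ATP5G2 stood at 265, 247 and 224 CPM against 199, 212 and 176 CPM, and every pBabe-Gα13 library was above every pBabe-vector library. With a log2 fold change of 0.33 ± 0.11 it passed in the blocked fit (edgeR; adjusted p 0.446 without and 3.7e-05 with the block), and against chromosome 12 it was 0.04. ATP5G3 stood at 175, 154 and 197 CPM against 173, 165 and 196 CPM. Without centering it was level between the lines, at −0.02 ± 0.12, and against chromosome 2 it was −0.10 (blocked edgeR fit, adjusted p = 0.156).

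The reads of the 3 genes added up to nearly the same level in both lines, at 517 ± 34.2 CPM in pBabe-Gα13 and 493 ± 22.1 CPM in pBabe-vector (SD, n = 3), and these ranges overlapped. Within that sum the mix of reads differed. ATP5G2 gave 49.7%, 51.7% and 41.5% of it in pBabe-Gα13 and 41.9%, 43.6% and 33.9% in pBabe-vector. In each pair its share was larger in pBabe-Gα13, and it was smallest in the replicate 3 library of both lines. The ratio of ATP5G2 to ATP5G1 was 2.85, 3.25 and 1.90 in pBabe-Gα13 against 1.91, 1.96 and 1.20 in pBabe-vector. These are shares of reads: the canonical transcripts are 646, 632 and 2587 bases long for ATP5G1, ATP5G2 and ATP5G3, so they compare libraries and not the amounts of the 3 transcripts. ATP5G1 and ATP5G2 also have 8 and 5 pseudogenes named after them in Gencode 44, and how reads that match several places were counted was not given in the sources used here.

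In the peripheral stalk and the rest of the membrane part, 6 of 7 genes lay below 0, with a median of −0.08. With the block 2 passed, both lower, against 10.4% of all genes called lower. ATP5H, subunit d of the peripheral stalk, stood at 109, 92.9 and 124 CPM in pBabe-Gα13 and at 118, 119 and 134 CPM in pBabe-vector. It was lower in pBabe-Gα13 in every pair, with log2 differences of −0.11, −0.35 and −0.11, but replicate 3 of pBabe-Gα13 was above 2 pBabe-vector libraries. Without the replicate 2 pair the blocked fit gave an adjusted p of 0.26 (edgeR). The log2 fold change was −0.19 ± 0.13 (edgeR; adjusted p 0.831 without and 0.0148 with the block) and −0.16 against chromosome 17 (adjusted p = 0.0429). ATP5L, subunit g, stood at 124, 108 and 127 CPM against 139, 122 and 143 CPM, and the 3 pairs differed by nearly the same amount, −0.16, −0.17 and −0.18. This gave −0.17 ± 0.11 on the log2 scale (edgeR; adjusted p 0.804 without and 0.0174 with the block), and −0.12 against chromosome 11 (adjusted p = 0.0907). The 5 genes that passed neither fit were ATP5F1 (subunit b), ATP5I (e), ATP5J (F6), ATP5J2 (f) and ATP5O (the oligomycin sensitivity-conferring protein), with log2 fold changes between −0.13 and 0.04. The exons of ATP5J2 are shared with a readthrough transcript that joins it to PTCD1, and those of ATP5O overlap another gene over 63.8% of their bases, so their counts are uncertain. The same holds for SDHA, COX8A and COX6A1, whose exons overlap another gene on the same strand over 69.4%, 35.4% and 32.6% of their bases.

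The 6 genes of mitochondrial DNA that encode subunits of complexes III, IV and V (MT-CYB, MT-CO1, MT-CO2, MT-CO3, MT-ATP6 and MT-ATP8) were compared with the nuclear genes of the same complexes. Their summed level was 9805 CPM in the std library of pBabe-Gα13 and 12577 CPM in that of pBabe-vector, and 33931 to 35695 CPM in the other 4 libraries. The other libraries thus held 3.55 and 2.77 times as much in the respective lines, whereas for the 40 nuclear genes the same ratios were 0.972 and 1.02. The sum over the mitochondrial genes was 1.12 and 1.45 times that over the nuclear genes in the std libraries and 3.86 to 4.20 times in the others. Between the lines the 6 genes had log2 fold changes from −0.14 to 0.06 with standard errors of 0.51 to 0.56, and 0 passed in edgeR's test. With the block MT-CO2 and MT-ATP8 were lower in pBabe-Gα13 (edgeR, adjusted p = 0.0182 and 0.0281), and without the std pair their adjusted p was 0.275 and 0.329.

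**Figure D3:**
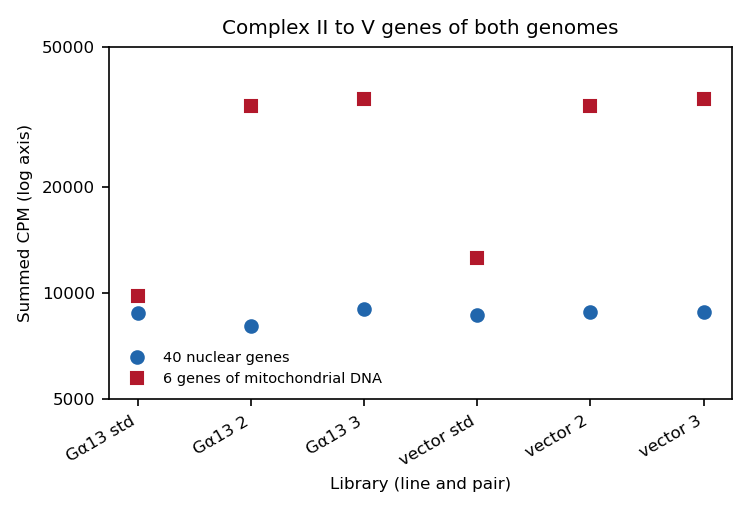
Summed CPM (log axis) of the 40 nuclear genes (circles) and of the 6 genes of mitochondrial DNA for complexes III to V (squares) in each library. The nuclear sums lie between 8079 and 9003 CPM, while the mitochondrial sums are 9805 and 12577 CPM in the std libraries and at least 33931 CPM in the others.

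Of 54 further genes of the pathway listed (the mitochondrial genes, other subunits and isoforms, and assembly and regulatory factors), 51 were in the table. In edgeR's test 0 of them passed without the block, against 0.139% of all genes, and 3 had an unadjusted p under 0.05, against 8.46%. With the block 8 were lower, against 10.4% of all genes, and 3 higher, against 9.32%. Centered on chromosomes with the block, 4 of the 51 were lower, against 8.31%, and 2 higher, against 7.17%. The 38 assembly and regulatory factors were split evenly, with 19 below and 19 above 0 and a median of 0.00. COX7B2, an isoform of subunit 7B, stood at 2.01, 2.56 and 1.77 CPM in pBabe-Gα13 and at 3.41, 5.58 and 4.64 CPM in pBabe-vector. The groups did not overlap, and the log2 fold change was −1.10 ± 0.25 (edgeR; adjusted p 0.252 without and 2.59e-05 with the block). Against chromosome 4 it was −1.05 (blocked edgeR fit, adjusted p = 0.000173).

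Among the assembly factors, COX11, which delivers copper to complex IV, stood at 46.6, 42.2 and 46.1 CPM against 52.3, 51.9 and 52.2 CPM. Its log2 fold change was −0.21 ± 0.09, and it passed with the block (edgeR, adjusted p = 0.00654). Against chromosome 17 it was −0.18 (blocked edgeR fit, adjusted p = 0.0238). SURF1, an assembly factor of complex IV that is mutated in Leigh syndrome, stood at 61.4, 60.6 and 59.3 CPM against 50.6, 54.3 and 50.2 CPM. Here every pBabe-Gα13 library was the higher one, by 0.23 ± 0.08 on the log2 scale (blocked edgeR fit, adjusted p = 0.0029). The median of its chromosome, 9, was 0.12, and relative to it the value was 0.10 and no longer passed (blocked edgeR fit, adjusted p = 0.21). UQCC1, needed for the translation of cytochrome b, stood at 16.0, 15.9 and 19.4 CPM against 13.1, 13.3 and 15.8 CPM. It was higher by 0.28 ± 0.14 on the log2 scale (blocked edgeR fit, adjusted p = 0.0156), whereas the median of its chromosome, 20, was −0.21. Relative to chromosome 20 the value for UQCC1 was 0.48 (blocked edgeR fit, adjusted p = 0.00026). COX14, another assembly factor of complex IV, lies on chromosome 12 and stood at 30.5, 33.1 and 32.1 CPM against 26.8, 24.4 and 31.8 CPM. With 0.21 ± 0.12 on the log2 scale in the fit without pairs, it passed in the blocked fit (edgeR, adjusted p = 0.041), and against chromosome 12 the value was −0.08.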

How the data were processed

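Libraries of 2 stable LNCaP lines, 3 each, were analysed. According to the study's methods, the authors checked 150-nucleotide paired reads with FastQC 0.11.7, aligned them with STAR (version not given in the sources used here) to Gencode 38 and aggregated them with featureCounts (Rsubread 1.30.9). Each value that the authors deposited is a raw count of reads for 1 gene symbol, with no fractions, although the methods describe log2 CPM, so the count test set for that case was used. All 6 columns were used. A count of 3 equals 0.0738 to 0.0909 CPM, for counting error only.

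Counts were scaled by TMM (factors 0.963 to 1.05) and tested over all 17297 genes by the quasi-likelihood functions of edgeR 4.0.16 in R 4.3.3 (glmQLFit, glmQLFTest), with an abundance trend and Benjamini-Hochberg adjustment; an adjusted p under 0.05 was called. Log2 CPM used a prior count of 2. Pairs came from the number or tag in the headings. Deviations from the group means correlated at r = 0.659 to 0.888 within pairs and −0.736 to 0.125 otherwise (12778 genes, which are not independent), so the blocked value stands beside each call that it changes. Chromosomes were assigned to 14501 symbols from RefSeq and Gencode 44, and centering subtracted the chromosome's median over genes with a mean of at least 1 CPM. Alternatives were DESeq2 1.42.0, limma-trend (limma 3.58.1), relative log expression factors, no trend, a 1 CPM filter, leaving out each library or pair, the block and centering; centering without the block was added after seeing the data. Exact permutation tests used SciPy 1.17.1; tables were handled in Python 3.11.15 with pandas 2.3.3 and NumPy 2.4.6 and drawn with matplotlib 3.10.9. The edgeR test with the line alone was checked on simulated counts that held no pair or chromosome effect. The blocked, centered and other fits were not checked in this way.

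The members and lists were chosen with earlier results of these data known. Values in every library are given for the 2 genes with the smallest p of complexes II, III and IV, the 5 of complex V, CYCS, the subunit c genes, members called with or without the block, and the 5 called pathway genes with the smallest p; ATP5A1 and COX8A were added after their values were seen. Protein sequences were not used here, and some of the luminal markers examined are not reported here.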

Additional observations from a re-analysis of the deposited data

How the results depend on the processing

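Among 17 alternatives the median log2 fold change of the 40 genes stayed below 0, between −0.12 and −0.03, and 25 to 34 genes lay below 0. Over the fits that left out 1 library the median ran from −0.12 to −0.03, 25 to 34 genes lay below 0 and 0 genes were called in each. The number called was 0 under limma-trend, relative log expression factors, no abundance trend and a filter at 1 CPM, and 1 under DESeq2 (complex V). With the replicate block, that is with the pairing of libraries in the fit, it was 11 (2 in complex III, 1 in IV and 8 in V). It was 12 with the std pair left out (1 in complex III, 2 in IV and 9 in V), 5 without the replicate 2 pair (1 in IV and 4 in V) and 6 without the replicate 3 pair (1 in IV and 5 in V), fits that rest on 2 pairs each. Centered on chromosomes it was 4 with the block (all in V) and 0 without it. The F test for pairs called 21 to 23 of the 40.

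Of the 16 members given with values in every library by the rule, 12 kept their direction under all 17 alternatives. SDHD turned to 0.0122 (block) and 0.0151 (no block) when centered on its chromosome and to 0.0072 in the block without the replicate 2 pair; without single libraries it ran from −0.107 (replicate 3 of pBabe-Gα13 left out) to 0.0122 (replicate 2 left out), with 0.0038 without the std library. CYCS ran from −0.23 (without replicate 3 of pBabe-Gα13) to 0.15 (without replicate 3 of pBabe-vector), with 0.0258 without the std library of pBabe-Gα13 and 0.10 without its replicate 2, and was 0.0237 in the block without the replicate 2 pair. ATP5G3 ran from −0.106 (without replicate 3 of pBabe-Gα13) to 0.0655 (without its replicate 2), with 0.0552 without replicate 3 of pBabe-vector, and was 0.0109 in the block without the replicate 2 pair. ATP5B turned to −0.0301 (block) and −0.0296 (no block) when centered on chromosome 12. The cause of these turns was not tested. In the annotation, 31 of the 40 genes have pseudogenes named after them, up to 42 for CYCS, whose reads could be shared.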
